A study of Danio rerio with 7 samples.

Results

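These results describe 653 binding sites of the transcription factor Cdx4 in zebrafish embryos that carried a called domain of acetylated histone H3K27, no called domain of trimethylated histone H3K4 and no overlapping peak of the factor Sall4. They made up 653 of the 5166 deposited Cdx4 peaks (12.6%) and 23.2% of the 2815 Cdx4 peaks without a Sall4 peak. The sites were chosen from the deposited intervals alone. A site overlapped no Sall4 peak, shared at least 1 bp with an H3K27ac domain and overlapped no H3K4me3 domain. The lists came from ChIP-seq, the sequencing of DNA bound to an immunoprecipitated protein, on whole wild-type Tu embryos at the bud stage, when gastrulation ends, with 1 library for each of the 4 targets. Cdx4 and Sall4 were Myc-tagged, and the same anti-Myc antibody was used for both. The labels describe embryos as uninjected or injected with mRNA at the 1-cell stage without naming the libraries. Wild-type embryos carry no Myc tag, so the Cdx4 and Sall4 libraries are taken here as coming from injected embryos. Binding here is thus that of tagged protein, whose level relative to the endogenous factor is not given. Whether the embryos used for the histone marks were injected is not given either. Each target was read in a separate library, and any effect of injection on overlaps between the lists was not tested. A whole embryo mixes many cell types, so a site that carries both Cdx4 and H3K27ac need not carry them in the same cells.

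Cdx4 is a homeodomain factor of the caudal family. In vertebrate embryos such factors pattern the posterior body and act on hox genes, and zebrafish Cdx4 is needed for normal formation of embryonic blood from mesoderm. Sall4 is a zinc finger factor of the spalt family known for its role in pluripotent and early embryonic cells. Acetylation of H3K27 marks active regulatory elements and H3K4me3 marks promoters, so acetylation without H3K4me3 is commonly taken as a mark of active elements away from promoters. No gene was assigned to a site and no site's bases are shown, because no genome or annotation of the files' assembly, Zv8, was used here.

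With 1 library per target there is no spread between libraries, and the choice of sites used all 4 lists, so no test was made and every comparison below is a description of these lists. Ranges in brackets after a share are exact binomial 95% intervals, and those after a median are 95% intervals from the order of the values. Both cover counting error only, and neighbouring sites are not independent. Depth and the authors' thresholds are unknown here, so a site outside every called domain may still carry the mark. Of all Cdx4 peaks, 30.6% lay in an H3K27ac domain. That share was part of the choice and says nothing more about the sites.

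The acetylated Cdx4-only sites had high Cdx4 scores for sites without Sall4. The score is the authors' own value per peak, of unstated meaning, and is used here only to rank peaks within the Cdx4 list. Scores of the 653 sites ran from 33 to 489 with a median of 101 (96 to 108) and quartiles of 73 and 144. The 1779 Cdx4-only peaks in no domain of either mark had a median of 70 (68 to 71), so the sites lay 31 higher. With only H3K27ac domains over 500 bp counted, that difference was 9 (1 to 22). Under that setting Cdx4-only peaks in narrower domains count as unmarked, and the range covers the error of the sites' median alone. The 119 sites in domains over 500 bp had a median of 84 (76 to 97), against the same 70 for peaks in no domain. The 690 peaks shared with Sall4 and marked by H3K27ac alone had a median of 110 (106 to 115). Cdx4-only peaks in H3K4me3 domains lay between these groups, with a median of 82 (78 to 86) for the 143 with both marks and 76 (72 to 80) for the 240 with H3K4me3 alone. In rank, the acetylated sites sat at a median place of 1730 among 5166, against 3458 for unmarked Cdx4-only peaks and 1440 for shared acetylated peaks.

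Of the 653 sites, 272 (41.7%, 37.8 to 45.5%) fell in the top quartile of the Cdx4 list by score, against 25.0% of all Cdx4 peaks. Among unmarked Cdx4-only peaks the share was 10.9% (9.49 to 12.4%), and among shared acetylated peaks 45.5% (41.7 to 49.3%). The difference from shared acetylated peaks was larger at the very top of the list. The top decile by score held 14.7% (12.1 to 17.7%) of the acetylated Cdx4-only sites and 24.9% (21.7 to 28.3%) of the shared acetylated peaks. Low scores were also represented, since 108 sites (16.5%) were in the bottom quartile of the list.

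**Figure D1:**
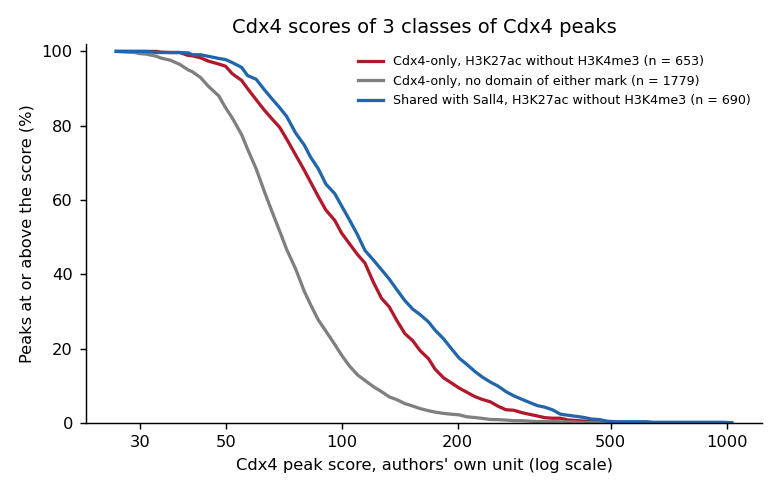
The plot of Cdx4 scores gives, for each score on the log-scaled x axis, the percentage of peaks of a class at or above it. Acetylated Cdx4-only sites (red, median 101) lie to the right of unmarked Cdx4-only peaks (grey, median 70) and to the left of shared acetylated peaks (blue, median 110).

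Read the other way, the proportion of Cdx4-only peaks that were acetylated was larger at higher Cdx4 scores. Outside H3K4me3 domains, 96 of 148 Cdx4-only peaks in the top decile of the list lay in an H3K27ac domain (64.9%, 56.6 to 72.5%). The share was 57.6% in the next decile, 44.7% in the one after it and 27.3% in the fourth one down. In the bottom decile it was 11.0% (7.95 to 14.8%, 39 of 354). Among peaks shared with Sall4 the range was narrower, from 50.9% (45.4 to 56.3%) in the top decile to 16.8% (10.6 to 24.8%) in the bottom one. In the top and second deciles the intervals of the Cdx4-only and shared peaks did not overlap, only just in the top one, with Cdx4-only peaks more often acetylated. In every other decile they overlapped, and the order varied. With deciles counted from the top, Cdx4-only peaks had the higher share in deciles 3 and 5. Shared peaks had the higher share in decile 4 and in deciles 6 to 10.

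**Figure D2:**
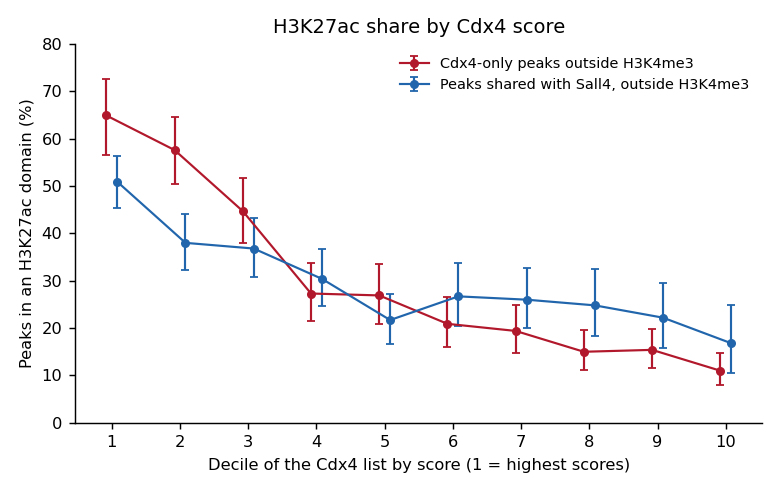
The plot of H3K27ac share by Cdx4 score divides the Cdx4 list into 10 equal groups, the highest scores at 1, and gives the percentage of peaks outside H3K4me3 domains that lay in an H3K27ac domain, with exact binomial 95% intervals. Cdx4-only peaks (red) run from 64.9% to 11.0%, and shared peaks (blue) from 50.9% to 16.8%.

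The 10 sites with the highest Cdx4 score differed in how firmly they sat in their domain. The top site, at chr8:17772318-17772417, scored 489 and ranked 12 in the whole Cdx4 list. It shared only 18 bp with a 200 bp domain whose own score was 0, and another Cdx4 peak, scoring 87 and outside any domain, lay 6 bp away. The next, at chr3:20554624-20554723 (score 471), shared 24 bp with a 499 bp domain that scored 22, and a Sall4 peak lay 33 bp away in the same domain. These top 2 sites met the H3K27ac condition only at the edge of a domain with a low score.

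The remaining 8 of these sites lay wholly within their domains. The site at chr20:26496284-26496383 (score 438) was 15.5 bp from the middle of a 499 bp domain, and its nearest Sall4 peak was 233606 bp away. At chr6:3809673-3809772 the site scored 408 and lay in a 499 bp domain, 3256 bp from a Sall4 peak. The site at chr12:36882309-36882408 (score 392) lay in a 599 bp domain, with the nearest other Cdx4 peak 169148 bp away. Each of the 8 sites was the only peak of either factor in its domain, as was the top site.

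The site at chr16:48678455-48678554 (score 376) had a Sall4 peak 67 bp away, just outside its 299 bp domain. At chr4:32061813-32061912 the site scored 372 and lay in a tile of 100 kb with 8 Cdx4 peaks. The site at chr3:3970143-3970242 (score 370) had a Sall4 peak 289 bp away, while its nearest other Cdx4 peak was 2741456 bp away. The last 2 were at chr13:12794711-12794810 (score 338), 7189 bp from an H3K4me3 domain, and at 1684 to 1783 of the unplaced sequence Zv8_NA2043 (score 336). That unplaced sequence carried no Sall4 peak and no other Cdx4 peak. Across the 10 sites the surroundings ranged from a Sall4 peak within 100 bp to none on the sequence.

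Most of the sites were the only peak of either factor in their H3K27ac domain, and the domains were about as narrow as the whole list. The 653 sites lay in 620 domains, of which 592 held 1 such site, 23 held 2 and 5 held 3. The median domain width per site was 399 bp (299 to 399), and 534 sites (81.8%) lay in a domain of up to 500 bp. Over all 4599 H3K27ac domains the median was also 399 bp and 80.3% were up to 500 bp wide, so this narrowness is near that of the list. For 490 sites (75.0%) no other peak of either factor touched the domain, and for 460 of these sites it was no wider than 500 bp. The choice barred Sall4 at the Cdx4 peak itself and most domains are narrow, so this share follows in part from the choice. No such share was taken for other acetylated Cdx4 peaks. Another Cdx4 peak touched the same domain at 120 sites (18.4%), and a Sall4 peak touched it, away from the site, at 118 sites (18.1%). H3K27ac domains started on multiples of 100 bp in 99.8% of cases, so their edges resolve position no better than that step.

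The domains with these sites had scores near the middle of the H3K27ac list. Their median score was 120 (114 to 126), against 113 (110 to 118) for the 2855 domains with no peak of either factor and 123 for all 4599. The 661 domains with a shared Cdx4 peak and none of these sites had a median score of 150 (143 to 159). Of the domains with acetylated Cdx4-only sites, 123 (19.8%, 16.8 to 23.2%) were in the top quartile of the H3K27ac list, against 25.0% of all domains. The share was 31.0% (27.5 to 34.7%) with shared peaks and 24.1% (22.5 to 25.7%) with no peak of either factor. The interval with no peak overlapped that of the domains with these sites. The groups differ in H3K4me3, which overlapped 1.61% of the domains with these sites and 13.8% of those with shared peaks. The choice of sites barred that mark at the Cdx4 peak. Without domains that overlap H3K4me3, the median scores were 119 (113 to 126) with these sites, 148 (142 to 156) with shared peaks and 105 (100 to 109) with no peak. The shares of these groups in the top quartile were then 19.0% (16.0 to 22.4%), 28.6% (24.9 to 32.5%) and 20.9% (19.1 to 22.7%). Domain scores differed more with Sall4 nearby. The 512 domains that held such a site and no Sall4 peak had a median score of 112 (107 to 117) and width of 299 bp. The 108 that also held a Sall4 peak had a median score of 208 (190 to 261) and width of 599 bp (499 to 599). Wider domains had higher scores across the 653 sites (Spearman correlation 0.778) and have more room for a further peak.

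Cdx4 score showed almost no steady rise or fall with domain score across these sites. Across the 653 sites the Spearman correlation of Cdx4 score with domain score was 0.087, and with domain width 0.065. Sites in 1 domain share its values, and each list comes from 1 library, so these are descriptions. The relation with width was not steady. Median Cdx4 scores were 95 (87 to 100) for 306 sites in domains up to 300 bp, 120 (114 to 134) for 228 sites in domains over 300 and up to 500 bp and 84 (76 to 97) for 119 sites in wider domains. The 41 sites in domains over 1000 bp had a median of 82 (66 to 107).

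The position of the Cdx4 peak within its domain was measured next. Each site had to overlap a domain, and domains are narrow, so high coverage at the centre and low coverage at 500 bp largely follow from the choice and are given as a description. The centre of the Cdx4 peak lay inside the domain at 630 of 653 sites (96.5%), and the whole 100 bp peak did at 565 (86.5%). Coverage by H3K27ac domains was 70.3% at 100 bp on the lower-coordinate side and 95.1% at 100 bp on the higher-coordinate side. At 500 bp it was 6.89% and 10.3% on these sides. The middle of the domain lay a median of 48.5 bp (43.5 to 52.5) toward higher coordinates, and it was on that side at 529 sites (81.0%). Shared acetylated peaks had a median offset of 49 bp (39.5 to 51.5) in the same direction. In domains over 500 bp the offset of the Cdx4-only sites was 36.5 bp, with an interval that included 0 (-18.5 to 104). That of shared acetylated peaks in such domains was 56.5 bp (13.5 to 92.5), and these intervals overlapped. Coordinates carry no gene direction here, and the source of the shared offset was not tested.

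**Figure D3:**
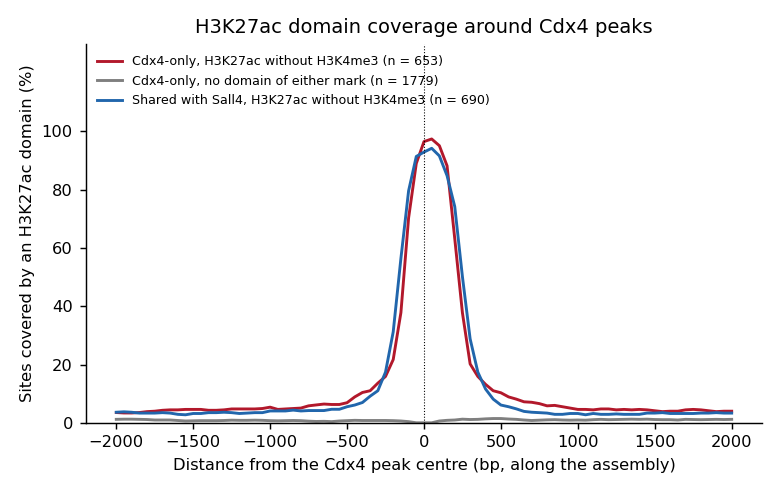
The plot of H3K27ac domain coverage gives the percentage of sites covered by a called domain at each distance from the Cdx4 peak centre, along the assembly. Coverage of acetylated Cdx4-only sites (red) is 96.5% at the centre and 10.3% or less at 500 bp on both sides, and that of shared acetylated peaks (blue) is 92.9% and 6.09% or less. The height at the centre of these groups, and the 0 of unmarked Cdx4-only peaks (grey) there, follow from how the groups were chosen.

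Sites in wide domains more often had other peaks within 5 kb than sites in narrow domains. Peaks in the site's own domain are counted, and a wider domain has more room for them. No share outside the domain was taken by width, and no such split is given here for shared acetylated peaks. Another Cdx4 peak lay within 5 kb of 76.5% (67.8 to 83.8%) of the 119 sites in domains over 500 bp and of 27.3% (23.6 to 31.3%) of the 534 sites in narrower ones. The shares with a Sall4 peak within 5 kb were 69.7% (60.7 to 77.8%) and 25.3% (21.6 to 29.2%). The shares with an H3K4me3 domain within 5 kb were 44.5% (35.4 to 53.9%) and 11.8% (9.19 to 14.8%). Among the 41 sites in domains over 1000 bp, 33 (80.5%) had an H3K4me3 domain within 5 kb. In contrast, 32.8% (24.4 to 42.0%) of the sites in domains over 500 bp were in the top quartile by Cdx4 score, against 43.6% (39.4 to 48.0%) of the others, and these intervals overlapped.

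**Figure D4:**
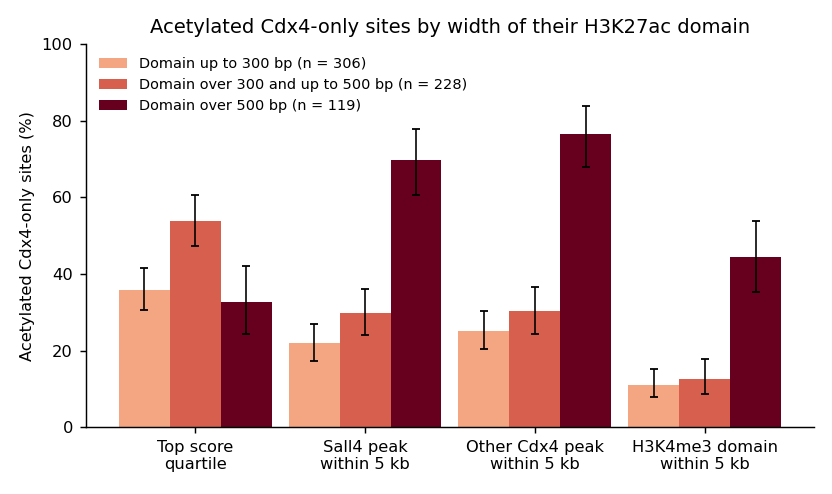
The bar chart by domain width gives the percentage of acetylated Cdx4-only sites in the top quartile of the Cdx4 list and with a Sall4 peak, another Cdx4 peak or an H3K4me3 domain within 5 kb, with exact binomial 95% intervals. Domains over 500 bp (dark bars) have the higher shares of all 3 kinds of neighbour, at 69.7%, 76.5% and 44.5%. Peaks in the site's own domain are counted as neighbours.

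The widest of the domains that held a site, and those with the most sites, show this variety. A domain with no peak of either factor reached 5599 bp, so the widths below are ordered among domains with a site alone. The widest, 6599 bp at chr23:37024700-37031298, held 7 Cdx4 and 6 Sall4 peaks in all, and 3 of the Cdx4 peaks were acetylated Cdx4-only sites with scores of 171, 158 and 140. These sites lay together near the lower-coordinate end, at 37024669, 37025135 and 37025528. A 4199 bp domain at chr25:33951300-33955498 held 2 sites with scores of 79 and 40. A 4099 bp domain at chr21:39189300-39193398, ranked 8 in the H3K27ac list, held a single site with a score of 148 and 2 Sall4 peaks. The domain ranked 6, 3799 bp wide at chr10:27945500-27949298, held a site with a score of only 96. The fifth in width among these, 3699 bp at chr11:40853100-40856798, held 2 sites with scores of 71 and 50 and no Sall4 peak.

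Among the domains with 3 sites, chr13:18727300-18727898 held the site with the highest score. It was 599 bp wide and held 3 Cdx4 peaks with scores of 256, 99 and 76 and no Sall4 peak. A 799 bp domain at chr23:35130800-35131598 held 3 sites with scores of 206, 175 and 77. Neighbouring domains of 1299 and 1899 bp, chr19:43130400-43131698 and chr19:43131900-43133798, held 3 sites each. Scores there were 82, 67 and 62 in the first and 119, 106 and 83 in the second. The first of these held no Sall4 peak and the second held 3. No rule of the choice asked for several sites in a domain, and such domains were 28 of 620 when those with 2 sites are included.

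"Cdx4-only" rested on a 1 bp limit, and some of the sites had a Sall4 peak next to them. A Sall4 peak began or ended within 100 bp of 90 sites (13.8%, 11.2 to 16.7%), and 68 of these lay under 50 bp away. Larger distances were less common, with 22 sites from 50 to under 100 bp, 14 from 100 to under 150 bp and 10 from 150 to under 200 bp. Unmarked Cdx4-only peaks showed a similar fall, with 117 of 1779 under 50 bp away and 37, 19 and 13 in these next steps. For 46 of the 90 sites (51.1%) the neighbouring Sall4 peak overlapped a different Cdx4 peak. These 90 sites had a median Cdx4 score of 97 (84 to 125), and their domains had a median width of 499 bp. Sites with no Sall4 peak within 5 kb, 435 in all (66.6%), had a median Cdx4 score of 104 (97 to 113) and a median domain width of 299 bp. The Cdx4 score intervals of these groups overlapped.

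Within 5 kb, 218 sites (33.4%, 29.8 to 37.1%) had a Sall4 peak, against 28.9% of all Cdx4-only peaks and 29.3% (27.2 to 31.5%) of the unmarked ones. In the top score quartile the order was the opposite, with 31.6% (26.1 to 37.5%) of acetylated and 41.8% (34.7 to 49.0%) of unmarked Cdx4-only peaks. These intervals overlapped. The shares were 35.5% and 35.6% in the second quartile and 32.2% and 31.3% in the third. In the bottom quartile they were 36.1% (27.1 to 45.9%) and 21.1% (18.1 to 24.3%), and these intervals did not overlap. Without the peaks that had Sall4 within 250 bp, the shares within 5 kb were 18.7% (15.5 to 22.3%) and 20.2% (18.3 to 22.3%), so the contrast of the whole classes was not seen there. At 100 bp the contrast with unmarked Cdx4-only peaks was 13.8% to 8.77% (7.50 to 10.2%). By Cdx4 score, in the top quartile of the list 14.3% (10.4 to 19.1%) of acetylated and 15.5% (10.7 to 21.3%) of unmarked Cdx4-only peaks had Sall4 within 100 bp. In the bottom quartile the shares were 15.7% (9.45 to 24.0%) and 7.60% (5.75 to 9.83%), and in both quartiles the intervals overlapped. The median distance to the nearest Sall4 peak was 19109 bp (13665 to 24855), and for 19 sites there was none on the same sequence.

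Other Cdx4 peaks were close to a similar part of the sites. Of the 653, 237 (36.3%, 32.6 to 40.1%) had another Cdx4 peak within 5 kb, against 37.5% of all Cdx4 peaks. The share was 28.7% (26.6 to 30.8%) for unmarked Cdx4-only peaks and 50.7% (46.9 to 54.5%) for shared acetylated peaks. Within 500 bp the shares were 20.7% (17.6 to 24.0%), 10.6% (9.18 to 12.1%) and 29.1% (25.8 to 32.7%). By Cdx4 score, in the bottom quartile 25.9% (18.0 to 35.2%) of acetylated and 8.18% (6.25 to 10.5%) of unmarked Cdx4-only peaks had a Cdx4 neighbour within 500 bp. In the third quartile these shares were 21.5% (14.5 to 29.9%) and 8.9% (6.59 to 11.7%), without overlap. The second quartile gave 21.7% (15.4 to 29.1%) and 13.2% (9.93 to 17.1%), with overlapping intervals. In the top quartile the shares were 17.6% (13.3 to 22.7%) and 18.6% (13.3 to 24.8%), so the contrast of the whole classes was not seen there. Within 5 kb the top quartile gave 35.3% (29.6 to 41.3%) of acetylated and 41.8% (34.7 to 49.0%) of unmarked Cdx4-only peaks.

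**Figure D5:**
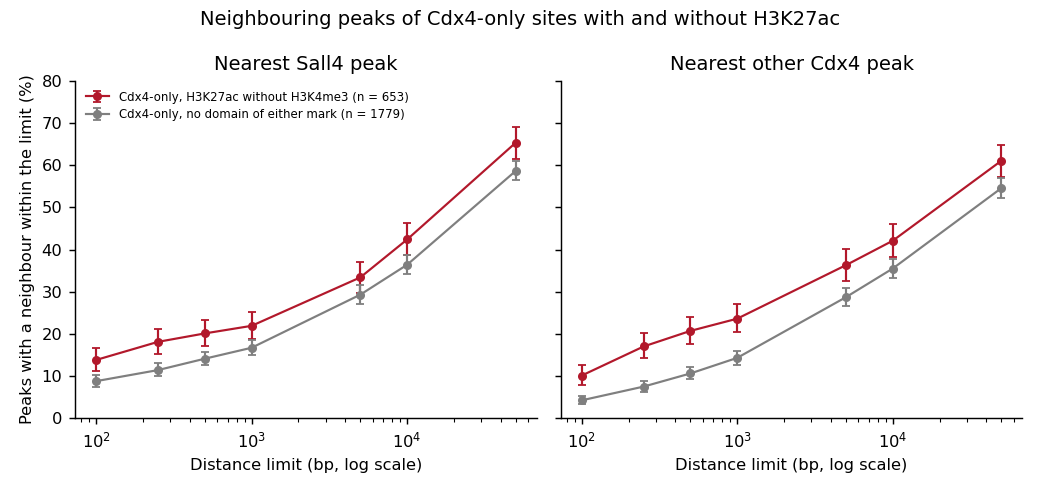
The plot of neighbouring peaks gives the percentage of Cdx4-only peaks with a Sall4 peak (left) or another Cdx4 peak (right) within each distance on the log-scaled x axis, with exact binomial 95% intervals. Acetylated sites (red) lie above unmarked peaks (grey) at each limit, from 13.8% against 8.77% at 100 bp to 65.4% against 58.7% at 50 kb for Sall4. Limits are cumulative, so the larger ones include the nearest neighbours, and the Sall4 intervals overlap at 5 kb and 10 kb. In the top score quartile the order at 5 kb is the opposite, at 31.6% against 41.8% for Sall4 and 35.3% against 41.8% for Cdx4, with overlapping intervals. In the bottom quartile acetylated sites are higher, at 36.1% against 21.1% for Sall4 and 38.0% against 25.1% for Cdx4, without overlap.

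The nearest Cdx4 neighbour was in many cases in the same domain, and then acetylated by the choice of sites. Of the 237 sites with another Cdx4 peak within 5 kb, the nearest was another acetylated Cdx4-only site for 79 (33.3%), a shared acetylated peak for 86 (36.3%) and an unmarked Cdx4-only peak for 43 (18.1%). The neighbour shared the site's domain in 118 cases (49.8%). Of the 119 neighbours outside it, 51 (42.9%, 33.8 to 52.3%) were acetylated. For shared acetylated peaks the corresponding share was 33.5% (26.8 to 40.7%), and for unmarked Cdx4-only peaks 17.8% (14.6 to 21.4%) of nearest neighbours were acetylated, against 30.6% of the whole Cdx4 list. Unmarked peaks lie outside every domain by definition, and 188 of their 510 neighbours lay within 500 bp. Their low share thus follows in part from how the group was defined. Within 100 bp of the sites, where both peaks usually fall in 1 domain, 35 of 66 neighbours were shared acetylated peaks and 25 were acetylated Cdx4-only sites. In 117 of the 237 cases (49.4%) the neighbour had the higher Cdx4 score. At the other extreme, 166 sites (25.4%, 22.1 to 28.9%) had neither a Sall4 nor another Cdx4 peak within 50 kb. The share was 30.1% (27.9 to 32.3%) for unmarked Cdx4-only peaks. A peak with no neighbour on its whole sequence was counted as lone, even where that sequence is short. Unplaced sequences held 6.13% of the sites and 10.2% of the unmarked peaks, and the effect on this contrast was not tested. The 166 lone sites had a median score of 104 (88 to 118) and domains with a median width of 299 bp.

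H3K4me3 domains lay within 5 kb of about as large a share of the sites as of other Cdx4 peaks outside that mark. Within 1 kb they were less common than around unmarked Cdx4-only peaks. The sites had no H3K4me3 overlap by choice, and 25 (3.83%, 2.49 to 5.60%) had an H3K4me3 domain within 1 kb. That share was 6.75% (5.62 to 8.01%) for unmarked Cdx4-only peaks and 2.75% (1.67 to 4.27%) for shared acetylated peaks. Within 5 kb the count of sites was 116 (17.8%, 14.9 to 20.9%). The share of all Cdx4 peaks, those inside H3K4me3 domains included, was 27.5%. Among the 4599 Cdx4 peaks outside H3K4me3 domains, by coincidence as many as there are H3K27ac domains, it was 18.6% (17.5 to 19.7%), and among unmarked Cdx4-only peaks 18.0% (16.3 to 19.9%). The median distance was 26007 bp (23058 to 30244) for the sites and 25228 bp (21127 to 28542) for shared acetylated peaks. For unmarked Cdx4-only peaks it was 33156 bp (29796 to 36857). Peaks with no H3K4me3 domain on their sequence counted as farthest in these medians. They were 2.91% of the sites and 7.53% of the unmarked peaks, and the effect on the contrast was not tested. At 12 sites (1.84%) the H3K27ac domain itself reached an H3K4me3 domain away from the peak. Other H3K27ac domains were fewer around these sites than in the list as a whole, except where the domain also held a Sall4 peak. Of the 620 domains, 127 (20.5%, 17.4 to 23.9%) had another H3K27ac domain within 5 kb. The share was 35.3% (33.9 to 36.7%) of all domains and 41.7% (39.9 to 43.6%) of those with no peak of either factor. Among the 620, it was 16.6% (13.5 to 20.1%) for the 512 without a Sall4 peak and 38.9% (29.7 to 48.7%) for the 108 with one. Domains with other factor peaks had shares nearer to that of the sites, at 27.4% (24.0 to 31.0%) with a shared Cdx4 peak and 25.5% (20.8 to 30.5%) with Sall4 but no Cdx4. With domains that overlap H3K4me3 left out, the shares were 20.2% (17.0 to 23.6%) with these sites, 24.9% (21.4 to 28.7%) with shared peaks and 44.7% (42.5 to 46.9%) with no peak, and the first 2 intervals overlapped.

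The sites lay on all 25 assembled chromosomes and, for 40 of them (6.13%), on 36 unplaced sequences. Each assembled chromosome held 10 (chromosome 22) to 34 (chromosome 23) sites, with a median of 25. As a share of the Cdx4 peaks of a chromosome they ranged from 8.33% on chromosome 22 to 20.0% (13.9 to 27.3%) on chromosome 25. The intervals of 2 of the 25 chromosomes lay above the share over the whole list, 12.6%. They were chromosome 25 and, only just, chromosome 21 (18.6%, 12.6 to 25.9%). When the assembly was divided into tiles of 100 kb, 490 sites (75.0%) were the only such site in their tile. A further 68 tiles held 2 or more. No such share was taken for other peaks or for random placement, so these counts do not tell spread from clustering. Dense tiles, those with 5 or more Cdx4 peaks of any kind, held 132 sites (20.2%, 17.2 to 23.5%), against 23.0% of all Cdx4 peaks. The share was 17.3% (15.6 to 19.2%) for unmarked Cdx4-only peaks and 28.1% (24.8 to 31.6%) for shared acetylated peaks.

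The tiles with the most acetylated Cdx4-only sites held 6 each. At chr23:35100001-35200000 they were 6 of 26 Cdx4 peaks, in 4 domains, with scores from 77 to 246. At chr19:43100001-43200000 they were 6 of only 7 Cdx4 peaks, all in the neighbouring pair of domains described above, with scores from 62 to 119. At chr25:37500001-37600000 they were 6 of 10 Cdx4 peaks, in 5 domains, with scores from 39 to 74, in a tile with 21 H3K27ac and 15 H3K4me3 domains. The highest Cdx4 score of a site in the chromosome 25 tile was thus below the lowest in the chromosome 23 tile.

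Each limit of the choice had sites close to it on both sides. The least H3K27ac overlap among the sites was 3 bp, at 14396 to 14495 of Zv8_NA2168 (score 138), followed by 12 bp at chr9:37833412-37833511 and 14 bp at chr1:39076086-39076185. A total of 22 sites (3.37%) shared under 50 bp with their domain, and 10 (1.53%) lay in a domain with a score of 0. Such domains were 9 of the 620 with these sites and 158 of all 4599, so they were not more common here. Just outside, a Cdx4-only peak with a score of 390 at chr19:14050992-14051091 was 8 bp from an H3K27ac domain. In all, 26 unmarked Cdx4-only peaks lay within 100 bp of one.

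For Sall4, sites at chr7:7456608-7456707 and at 15217187 to 15217286, with scores of 146 and 135, directly abutted a Sall4 peak. On the other side, acetylated peaks at chr17:39716876-39716975 (score 68) and chr25:33588153-33588252 (score 55) counted as shared through 1 bp. Within 10 bp of a Sall4 peak there were 12 sites, and 20 acetylated peaks were counted as shared through 10 bp or less. For H3K4me3, the site at chr23:35114199-35114298 (score 246) abutted a domain, and 8 sites lay within 100 bp of one. The Cdx4-only peak at chr3:40052309-40052408 (score 205) was left out through 9 bp of H3K4me3 overlap.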

How the data were processed

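Per the labels, about 2000 embryos were staged for a ChIP and 500 of them used, with 15 min of crosslinking in 1.1% formaldehyde. The authors deposited 5166 Cdx4 and 9747 Sall4 peaks, 4599 H3K27ac and 19401 H3K4me3 domains, 1 library per list, with a score per interval whose meaning no source used here gives. Factor peaks are named after the GPS caller in the deposited files, domains after none. The submitters' processing notes name CASAVA 1.4 and Bowtie 0.12.7 without their roles. Depth, thresholds and the use of the 3 input libraries (not analysed here) are unknown. Unplaced sequences have Zv8 names, the assembly taken for all coordinates.

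Starts and ends were both taken as included, with counting from 1. Overlap meant at least 1 bp, and distances are the bases between intervals. Dense tiles were those of 100 kb with 5 or more Cdx4 peaks. Positions named are the 10 best-scoring sites, the 5 widest domains, the 3 tiles and 3 domains with the most sites (ties to the higher Cdx4 score), and sites at each limit; the chromosome 19 domains were added after their values were seen. The sites and lists were chosen with earlier results of these data known. Overlap, distance and class calls were tested on simulated data. Software was matplotlib 3.10.9, scipy 1.17.1, pandas 2.3.3, numpy 2.4.6 and Python 3.11.15.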

Additional observations from a re-analysis of the deposited data

How the results depend on the processing

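Of 70 values (10 results under 7 alternatives), 51 stayed within the main interval or, for the number of sites, within 1.5 times, and 19 moved. Only the differences between median scores could change sign, and 0 did. All 10 results stayed within these bounds with the peak centre required inside the domain, on assembled chromosomes alone and with starts counted from 0. Keeping only domains over 500 bp left 119 sites, a median Cdx4 score of 84, 32.8% in the top quartile, a median width of 799 bp, 69.7% with Sall4, 44.5% with H3K4me3 and 76.5% with another Cdx4 peak within 5 kb, and 52.9% in dense tiles. The median score then exceeded that of unmarked Cdx4-only peaks by 9 (31 in the main reading) and differed by -25.5 from shared acetylated peaks (-9). Peaks in narrower domains counted as unmarked there, so the comparison groups changed too. Peaks unmarked in the main reading had a median of 70. With the better-scoring part of the Cdx4 list split at its median, 424 sites remained, with a median score of 130, 64.2% in the top quartile, 27.1% with another Cdx4 peak within 5 kb and 13.0% in dense tiles; fewer peaks and higher scores follow from that choice. With Sall4 kept 250 bp away, 18.7% of sites had Sall4 and 28.0% another Cdx4 peak within 5 kb, and 16.1% lay in dense tiles. With H3K4me3 kept 1 kb away, 14.5% had it within 5 kb. These wider margins remove close neighbours by construction; the cause of the other shifts was not tested. No paired analysis was possible because each target had 1 library, and no replicate could be left out.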
